A study of Homo sapiens with 18 samples.

Results

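The SR proteins SRSF1, SRSF2, SRSF3, SRSF4, SRSF5, SRSF6 and SRSF7 and the CLK kinases CLK1, CLK2 and CLK4 were followed through a time course of DNA damage. These 10 genes were chosen by name, with earlier results of these data known. Every array probe whose gene symbol in the platform's gene table is one of theirs was taken as a member. This gave 9 of the 20045 genes named in that table, read by 12 of the 47231 probes on the array, 9 probes for all 7 SR proteins and 3 for CLK1 and CLK4. CLK2 was not analysed here, because no probe in the table used here carries that symbol. All 12 probes passed the detection filter, as did 22161 probes in all. SRSF3, SRSF5 and CLK1 each had 2 probes, which are given apart, probe A being the brighter and probe B the dimmer one. Probes of the same gene may read the same or different transcripts and are not replicates of a condition.

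The cells were HEK293, a human embryonic kidney line, in which the endogenous p65 subunit of NF-kB (the product of RELA) had been knocked down with siRNA in every sample. A lentivirus supplied an HA-tagged p65 that the siRNA does not target, either wild type (wt) or carrying the S547A change, in which alanine replaces a serine. Each of these lines was studied without drug and after 4 h and 8 h with etoposide, in 3 independent experiments, so that 6 groups of 3 arrays were compared. Neither the dose of etoposide nor the number of clones behind each line is given in the sources used here, and cells with their own p65 unsilenced are not among the samples, so all comparisons are between cells with replaced p65.

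SR proteins are RNA-binding splicing factors with a domain of repeated arginine and serine residues. They bind enhancer sequences in exons and help the splicing machinery to find the neighbouring splice sites. CLK kinases phosphorylate the serines of that domain, which releases SR proteins from nuclear speckles and sets their activity. Several genes of both families are known to adjust their own output through alternative exons or retained introns, so that 1 gene can give coding and non-coding transcripts. The files do not say where in a transcript a probe lies, so which of these forms a probe measures is not known here. Etoposide traps topoisomerase II on DNA and so causes double-strand breaks.

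Levels are normalized log2 intensities, so that a difference of 1 is a doubling, and they compare the same probe between arrays but not different probes. A change was called at an adjusted p under 0.05 in limma over all 22161 kept probes. Of all probes, between 35.8% and 39.2% were detected per array, at a detection p under 0.05, and median intensities were between 94.7 and 122. RELA was on average 7.80 ± 0.32 (SD, n = 3) in untreated wt cells and 8.86 ± 0.20 (n = 3) in untreated S547A cells, a called difference of 1.07 (adjusted p = 0.0486), and it rose with etoposide in each line. The rise in wt cells was 1.63 at 4 h and 1.43 at 8 h, and that in S547A cells 1.29 and 0.83. No probe was called between the untreated lines without a filter or when only those groups were fitted, so the RELA call was lost there. This level moved with the groups compared below, and its part in the results was not tested. Among genes that HEK293 cells express, VIM, KRT18, NEFL and NEFM were detected on all 18 arrays and KRT8 on 17, while PAX2 was detected on at most 1. The defining markers PTPRC, CD3E, CDH5, VWF, KRT5 and KRT14 of other cell types were detected on none, whereas CD14 was detected on 15 arrays at levels from 5.04 to 6.27, COL1A1 on 13, LUM on 9, COL1A2 on 3, and DCN and PECAM1 on 2 each.

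After 8 h of etoposide both CLK kinases measured and most SR proteins were higher than in untreated cells, in each line. CLK4 and CLK1 probe A had already risen at 4 h in each line. SRSF2, SRSF4, SRSF5, SRSF6 and SRSF7 were called higher at 8 h in both lines, and SRSF3 in neither. SRSF1 was called in S547A cells and not in wt cells, and the difference between the lines in its response was itself not called (0.23, adjusted p = 0.806). No member was called lower in any comparison. In bulk RNA, fewer cells expressing a gene and less of its RNA per cell cannot be told apart.

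CLK4 encodes a dual-specificity kinase that phosphorylates SR proteins. In wt cells its level was 5.47, 4.75 and 4.97 on the 3 untreated arrays, 6.22, 6.69 and 6.56 at 4 h, and 7.34, 7.58 and 7.60 at 8 h. In S547A cells it was 4.79, 5.17 and 4.97 untreated, 5.81, 6.78 and 6.63 at 4 h, and 7.64, 8.25 and 8.01 at 8 h. In both lines the 3 times formed 3 separate bands with no array out of order. The increase in wt cells was 1.42 ± 0.24 (SE) at 4 h (adjusted p = 0.00153) and 2.44 ± 0.24 at 8 h (adjusted p = 1.92e-06). The S547A increase was 1.43 ± 0.24 at 4 h (adjusted p = 0.0016) and 2.99 ± 0.24 at 8 h (adjusted p = 1.96e-07). The probe was detected on 1 of the 3 untreated wt arrays and on none of the untreated S547A arrays. Its S547A increases are therefore given as bounds, at least 2.19-fold at 4 h and at least 6.46-fold at 8 h, taken against the lowest signal among detected probes. All 4 increases were called under every alternative in which the probe was tested, but their size depended on the background correction. With the authors' normalized table the wt increases were 0.62 at 4 h and 1.24 at 8 h and the S547A increases 0.62 and 1.6, below the bounds, which hold only for levels corrected for background here.

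CLK1 encodes the founding kinase of the family, and its transcript is known to be made both with and without an exon that the kinase domain requires. Probe A read 8.20, 8.29 and 8.48 in untreated wt cells, 9.24, 9.56 and 9.95 at 4 h and 9.76, 10.02 and 10.74 at 8 h. In S547A cells the same probe read 7.69, 8.40 and 8.44, then 9.01, 10.08 and 9.95, and then 10.42, 10.74 and 10.70. Every treated array lay above every untreated array of its line, and at 8 h the S547A arrays lay above the S547A arrays of 4 h, while the wt arrays of 4 h and 8 h overlapped. The increase in wt cells was 1.26 ± 0.29 at 4 h (adjusted p = 0.0143) and 1.85 ± 0.29 at 8 h (adjusted p = 0.00021). The S547A increase was 1.5 ± 0.29 at 4 h (adjusted p = 0.00484) and 2.44 ± 0.29 at 8 h (adjusted p = 1.36e-05). The 8 h increases were called under every alternative run. The wt call at 4 h ended without untreated array 1 (adjusted p = 0.0571), without untreated array 2 (0.0502) or without 4 h array 3 (0.0708), and the S547A call at 4 h ended when only the groups compared were fitted (0.0631).

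CLK1 probe B lay near the detection limit and was detected on 7 of the 18 arrays. In wt cells it read 4.80, 4.79 and 4.90 untreated, 4.64, 5.16 and 5.06 at 4 h, and 5.41, 5.30 and 6.26 at 8 h. In S547A cells it read 4.85, 4.76 and 4.96, then 4.69, 5.54 and 5.05, and then 6.67, 6.24 and 6.21. The untreated and 4 h arrays overlapped in both lines, and the 8 h arrays lay above both of these groups. At 4 h the change was 0.13 ± 0.24 in wt (adjusted p = 0.849) and 0.24 ± 0.24 in S547A cells (adjusted p = 0.682), neither called. At 8 h the probe was called higher in wt cells by at least 1.37-fold (adjusted p = 0.0198) and in S547A cells by at least 2.14-fold (adjusted p = 0.000211). With the authors' normalized table these increases were 0.35 and 0.64 on the log2 scale, below those bounds. The wt call rested on single arrays, since the adjusted p was 0.0556 without untreated array 1, 0.0571 without untreated array 2 and 0.119 without 8 h array 3. Probe A of the same gene was thus called at 4 h and 8 h and probe B at 8 h, and whether the probes differ in their response was not tested.

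**Figure D1:**
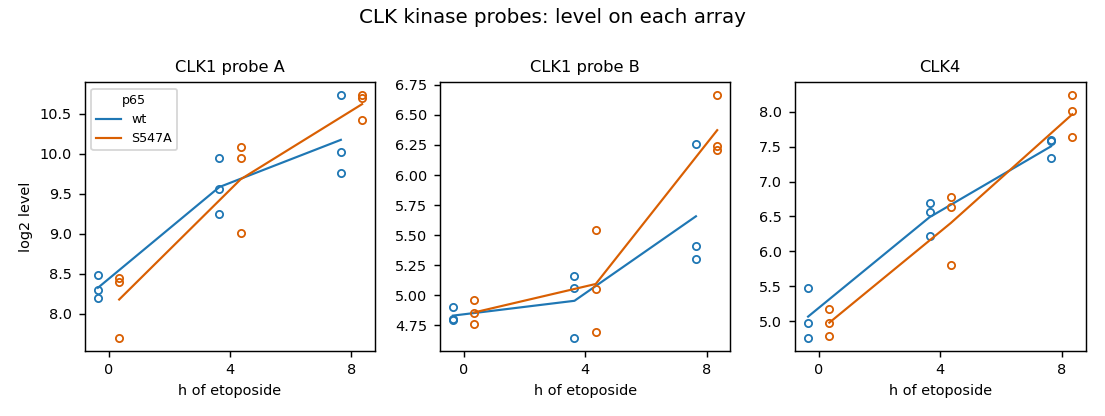
Level of the CLK1 and CLK4 probes on each array (y axis, normalized log2 intensity, with its own range for each panel) against hours of etoposide (x axis), wt in blue and S547A in orange, set slightly apart. Open circles are arrays, 3 per group, and lines join group means. CLK4 rises from between 4.75 and 5.47 in untreated cells to between 7.34 and 8.25 at 8 h, and CLK1 probe B leaves its untreated range clearly only at 8 h.

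Among the SR proteins, SRSF4, SRSF5 and SRSF6 are close relatives that carry a pair of RNA recognition motifs. SRSF4 read 10.98, 11.03 and 11.02 in untreated wt cells, 11.52, 11.57 and 11.62 at 4 h and 11.81, 11.84 and 12.13 at 8 h. The S547A arrays read 11.06, 11.39 and 11.05, then 11.53, 11.64 and 11.71, and then 11.78, 11.98 and 11.94. The 3 times did not overlap in either line. The increase at 4 h was 0.56 ± 0.13 in wt (adjusted p = 0.0142) and 0.46 ± 0.13 in S547A cells (adjusted p = 0.0488). At 8 h it was 0.91 ± 0.13 in wt (adjusted p = 7.46e-05) and 0.73 ± 0.13 in S547A cells (adjusted p = 0.000546).

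SRSF6 read 11.44, 11.53 and 11.68 in untreated wt cells, 11.97, 12.15 and 12.26 at 4 h and 12.44, 12.26 and 12.54 at 8 h. In S547A cells it read 11.50, 11.60 and 11.74, then 11.93, 12.09 and 12.49, and then 12.46, 12.63 and 12.87. Treated and untreated arrays did not overlap, while those of 4 h and 8 h met or overlapped in each line. The increase in wt cells was 0.58 ± 0.16 at 4 h (adjusted p = 0.0389) and 0.86 ± 0.16 at 8 h (adjusted p = 0.00082). In S547A cells the 4 h difference of 0.56 ± 0.16 just missed the threshold (adjusted p = 0.0511). It was called when the replicate number of the labels was fitted as a block (adjusted p = 0.012). The 8 h increase in S547A cells was 1.04 ± 0.16 (adjusted p = 0.000153).

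SRSF5 was read by a pair of probes. Probe A went from 11.47, 11.79 and 11.64 in untreated wt cells to 12.03, 11.97 and 12.12 at 4 h and 12.35, 12.21 and 12.29 at 8 h. Probe B went from 10.77, 10.89 and 10.73 to 11.34, 11.47 and 11.20 and then to 11.46, 11.67 and 11.60 on the same arrays. Treated arrays lay above untreated ones with both probes. In wt cells at 4 h the difference was 0.41 ± 0.12 with probe A, at the threshold and not called (adjusted p = 0.0502), and 0.54 ± 0.13 with probe B, called (adjusted p = 0.0153). At 8 h the wt increases were 0.65 ± 0.12 (adjusted p = 0.000713) and 0.78 ± 0.13 (adjusted p = 0.000257). In S547A cells probe A was between 11.58 and 11.63 untreated, between 11.92 and 12.15 at 4 h and between 12.22 and 12.32 at 8 h, and probe B between 10.89 and 11.13, between 11.32 and 11.49 and between 11.38 and 11.63. There the 4 h differences were 0.41 ± 0.12 (adjusted p = 0.0515) and 0.42 ± 0.13 (adjusted p = 0.0637), not called. The S547A increases at 8 h were 0.66 ± 0.12 (adjusted p = 0.00058) and 0.56 ± 0.13 (adjusted p = 0.00381).

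SRSF2, also known as SC35 and used as a marker of nuclear speckles, read 12.21, 12.10 and 12.27 in untreated wt cells, 12.57, 12.63 and 12.70 at 4 h and 12.86, 12.92 and 13.21 at 8 h. The S547A arrays read 11.97, 12.25 and 12.23, then 12.42, 12.80 and 12.55, and then 12.91, 13.22 and 12.88. No array overlapped between the times in either line. The 4 h difference of 0.44 ± 0.15 in each line was not called (adjusted p = 0.0921 in wt and 0.095 in S547A cells). The 8 h increase was 0.80 ± 0.15 in wt (adjusted p = 0.000723) and 0.85 ± 0.15 in S547A cells (adjusted p = 0.000412).

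SRSF7, an SR protein with a zinc knuckle that also takes part in mRNA export, was between 10.36 and 10.56 in untreated wt cells and between 10.84 and 10.97 at 8 h, an increase of 0.44 ± 0.12 (adjusted p = 0.0156). That call ended without untreated array 1 (adjusted p = 0.0667), without 8 h array 3 (0.0567) and when arrays were scaled to a common median (0.0718). In S547A cells it went from between 10.39 and 10.59 to between 10.87 and 11.17 at 8 h, an increase of 0.51 ± 0.12 (adjusted p = 0.00666) that was lost when only the groups compared were fitted (0.0574). Its 4 h differences of 0.20 ± 0.12 in wt (adjusted p = 0.45) and 0.14 ± 0.12 in S547A cells (adjusted p = 0.634) were not called, and those arrays overlapped the untreated ones.

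SRSF1, the founding SR protein, also known as ASF/SF2, was called once. In S547A cells it read 11.85, 11.84 and 11.79 untreated and 12.28, 12.31 and 12.21 at 8 h, an increase of 0.44 ± 0.12 (adjusted p = 0.0107) with no overlap. The call was lost when arrays were scaled to a common median (0.32, adjusted p = 0.189) and when only the groups compared were fitted (0.0651). In wt cells the arrays read 11.89, 11.79 and 12.05 untreated and 12.21, 11.98 and 12.17 at 8 h, which overlapped, and the difference of 0.21 ± 0.12 was not called (adjusted p = 0.238).

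SRSF3, a small SR protein with a single RNA recognition motif, was called in no comparison. With probe A the wt arrays read 9.51, 9.39 and 9.56 untreated, 9.07, 9.47 and 9.19 at 4 h and 9.17, 9.15 and 9.35 at 8 h. The S547A arrays read 8.90, 9.32 and 9.56, then 9.01, 9.63 and 9.56, and then 9.43, 10.08 and 9.56. The 8 h wt arrays lay just below the untreated ones, while the S547A groups overlapped at every time. The differences at 8 h were -0.27 ± 0.20 in wt (adjusted p = 0.413) and 0.43 ± 0.20 in S547A cells (adjusted p = 0.155), neither called. Probe B, at levels from 5.82 to 6.91, gave wt differences of -0.53 ± 0.25 at 4 h (adjusted p = 0.268) and -0.21 ± 0.25 at 8 h (adjusted p = 0.63). Its S547A differences were 0.03 ± 0.25 (adjusted p = 0.968) and -0.07 ± 0.25 (adjusted p = 0.886). The upper end of the 95% interval of the wt change at 8 h was 0.16 for probe A and 0.31 for probe B.

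**Figure D2:**
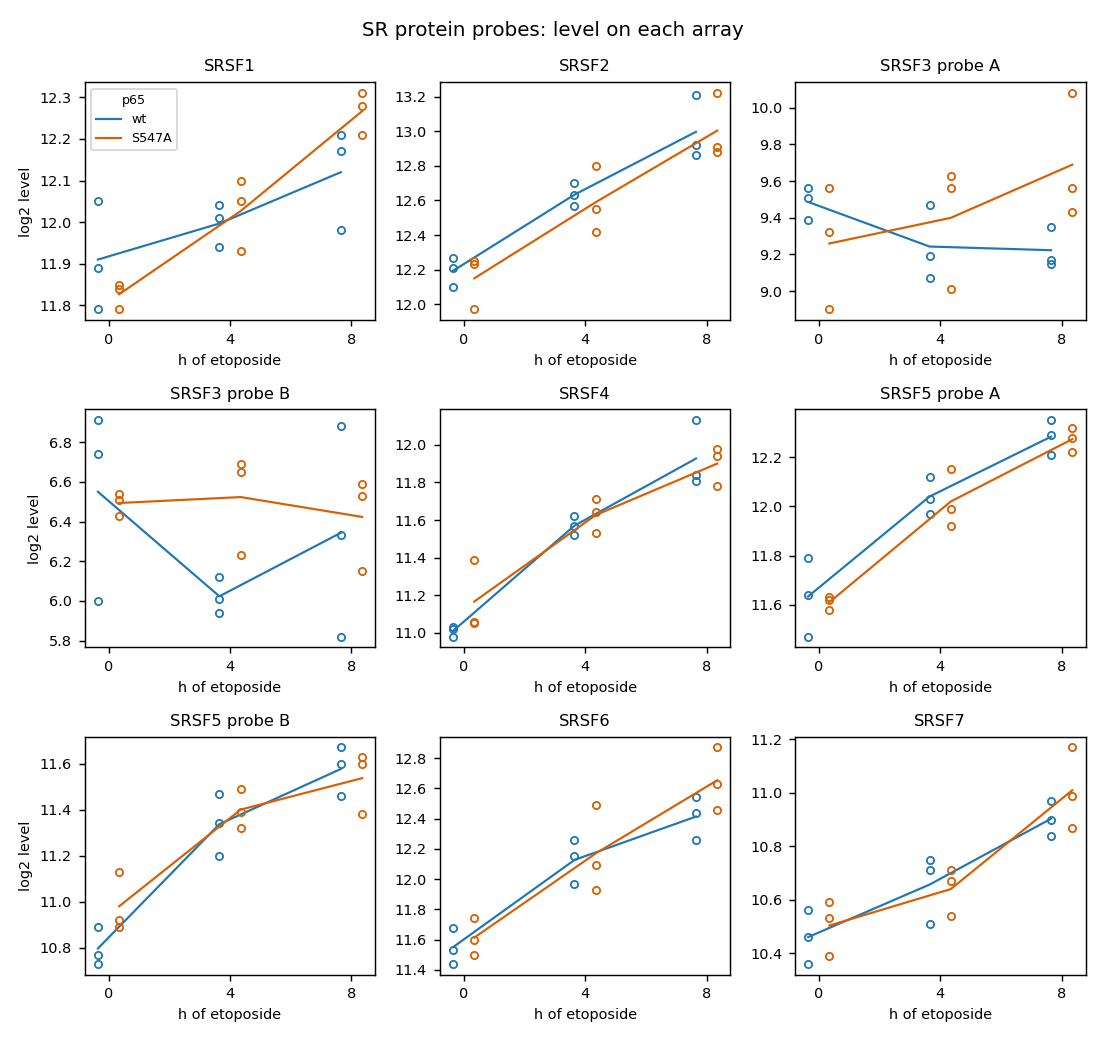
Level of the 9 SR protein probes on each array (y axis, normalized log2 intensity, with its own range for each panel, not starting at 0) against hours of etoposide (x axis), wt in blue and S547A in orange, set slightly apart. Open circles are arrays, 3 per group, and lines join group means. SRSF2, SRSF4, SRSF5 and SRSF6 climb with time in both lines, while the SRSF3 probes scatter without a shared order.

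Counted over the 12 member probes, 5 were called higher in wt cells at 4 h, 3 of the 9 SR protein probes and 2 of the 3 CLK probes, where 3.49% of all probes were called higher. At 8 h in wt cells 9 were called higher (6 SR and 3 CLK probes), against 11.5% of all probes. In S547A cells 3 were called higher at 4 h (SRSF4, CLK1 probe A and CLK4), against 3.18% of all probes, and 10 at 8 h (7 SR and 3 CLK probes), against 11.5%. CLK1 probe B passed the detection filter through the 8 h arrays, and CLK4 through the treated arrays, so their calls could not have gone the other way. Of the 10 member probes detected on all 18 arrays, 4 and 7 were called higher in wt cells at 4 h and 8 h, and 2 and 8 in S547A cells. The shares above include probes detected on fewer arrays, and no share over probes detected on every array is given, so these counts stand without one. No member was called lower, where the share of all probes called lower in wt cells was 2.54% at 4 h and 9.81% at 8 h, and that in S547A cells 2.17% and 10.8%. Without regard to the test, all treated arrays lay above all untreated ones for 7 members in wt cells at 4 h (12.7% of all probes), 9 at 8 h (18.9%), 8 in S547A cells at 4 h (10.8%) and 10 at 8 h (17.5%). The median change over the members in wt cells was 0.42 at 4 h and 0.79 at 8 h, and that in S547A cells 0.41 and 0.70, beside medians between -0.02 and -0.01 over all kept probes. The 4 h and 8 h responses of a line share its untreated arrays. Since the members were chosen with earlier results of these data known, the counts describe these probes and are not a test.

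The 4 h calls of SR proteins depended on the settings and on single arrays, and some were lost and others gained. In wt cells those of SRSF4, SRSF5 probe B and SRSF6 all ended when arrays were scaled to a common median (adjusted p = 0.196, 0.251 and 0.233) and when only the groups compared were fitted (0.0507, 0.0747 and 0.0728). The SRSF6 call ended on leaving out any of the 6 arrays, with adjusted p from 0.0524 to 0.139. The SRSF5 probe B call ended without untreated array 1 (0.0547) or 3 (0.0653) and without 4 h array 1 (0.0524) or 2 (0.0737), and the SRSF4 call without untreated array 1 (0.0533) or 4 h array 3 (0.0537). In S547A cells the SRSF4 call at 4 h ended under the median scaling (0.0888), in the fit of the groups compared (0.228) and without untreated array 1 (0.157) or 3 (0.163) or 4 h array 1 (0.06), 2 (0.108) or 3 (0.156). With the authors' table, SRSF2 and SRSF5 probe A were gained in wt cells at 4 h (adjusted p = 0.0217 and 0.00946). In S547A cells SRSF2, SRSF5 probe A, SRSF5 probe B and SRSF6 were gained (0.0245, 0.0108, 0.0151 and 0.00797). Probes called overall at 4 h with that table were 1715 in wt (1335 above) and 1465 in S547A cells (1185 above). At 8 h, by contrast, the calls of SRSF2, SRSF4, both SRSF5 probes and SRSF6 held in each line under every alternative in which the probe was tested.

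**Figure D3:**
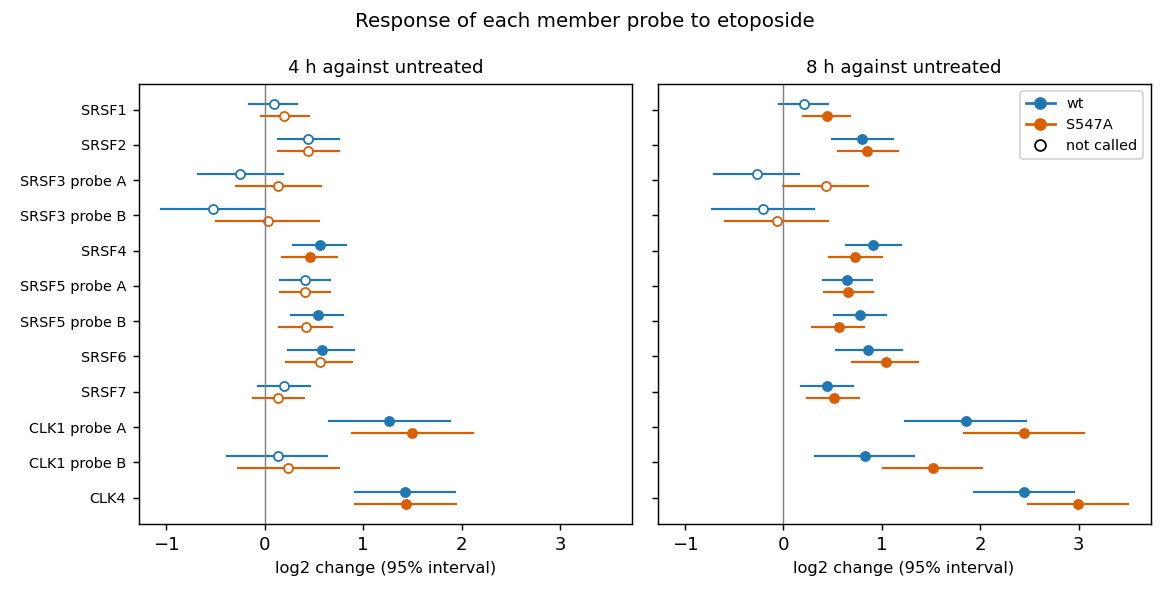
Change of each member probe against untreated cells of the same line (x axis, log2 change, bars the 95% intervals of the limma fit) at 4 h and at 8 h, wt in blue and S547A in orange. Filled points were called at an adjusted p under 0.05. CLK4 and CLK1 probe A stand farthest to the right at both times, and no SRSF3 point is filled.

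Between 4 h and 8 h of etoposide CLK4 rose further in each line, and CLK1 probe B in S547A cells. CLK4 gained 1.02 ± 0.24 in wt (adjusted p = 0.0159) and 1.56 ± 0.24 in S547A cells (adjusted p = 0.000904). The wt call ended without 4 h array 1 (adjusted p = 0.0774), 8 h array 2 (0.058) or 8 h array 3 (0.0578). CLK1 probe B gained 1.28 ± 0.24 in S547A cells (adjusted p = 0.00336), where 1 of the 3 arrays of 4 h had detected it. In wt cells, with no 4 h array detecting it, it was at least 1.34-fold higher at 8 h, which was not called (adjusted p = 0.0869). CLK1 probe A differed by 0.58 ± 0.29 in wt cells, with overlapping arrays (adjusted p = 0.257), and by 0.94 ± 0.29 in S547A cells (adjusted p = 0.0502), neither called. CLK4 was thus the 1 member called in wt cells, where 4.48% of all probes were called higher, and CLK4 and CLK1 probe B were the 2 called in S547A cells, where 5.34% were. No member was called lower, against 3.11% and 4.67% of all probes.

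In this S547A comparison arrays with the same replicate number in the labels deviated together, so it was also fitted with that number as a block. The block raised the count from 2 to 4, adding CLK1 probe A (adjusted p = 0.00586 with the block) and SRSF6, which differed by 0.48 (0.0652 without and 0.0179 with it). Over all kept probes the number called went from 2220 to 2554 with the block. With the settings used above and without the block, none of the SR protein probes was called between 4 h and 8 h. Their differences were between -0.10 and 0.48 in S547A cells and between -0.02 and 0.36 in wt cells. With the authors' normalized table and no block, SRSF2 (adjusted p = 0.0216), SRSF6 (0.0127) and SRSF7 (0.0184) were called in S547A cells. SRSF4 was called there in wt cells (0.0344).

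The study's other question is whether the p65 serine that S547A replaces bears on the response. No member probe was called between S547A and wt cells untreated, at 4 h or at 8 h by limma, where 0.0135%, 0.0406% and 0.0496% of all probes were called in either direction. At an unadjusted p under 0.05 the member counts were 0, 0 and 2 of 12, beside 1272, 1176 and 1361 of the 22161 kept probes. The 2 were at 8 h, CLK1 probe B with a difference of 0.72 (95% interval 0.21 to 1.22, unadjusted p = 0.00853, adjusted p = 0.677) and SRSF3 probe A with 0.47 (0.04 to 0.90, unadjusted p = 0.0346, adjusted p = 0.805). CLK4 at 8 h was higher on each S547A array than on each wt array, between 7.64 and 8.25 against between 7.34 and 7.60, and its difference of 0.46 (-0.05 to 0.97) was not called (adjusted p = 0.838).

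The difference in response between the lines was also not called for any member at 4 h or 8 h, where 0.0135% and 0.0180% of all probes were. At an unadjusted p under 0.05 the member counts were 0 and 1 of 12, beside 1216 and 1486 of the 22161 kept probes. The 1 was SRSF3 probe A at 8 h, for which S547A minus wt was 0.69 (0.09 to 1.30, unadjusted p = 0.0278, adjusted p = 0.689). Beside these, CLK4 was detected on no untreated S547A array and CLK1 probe B on no untreated array, so their estimates rest on levels near background. The 8 h estimates of S547A minus wt for the CLK probes were 0.55 (-0.17 to 1.26) for CLK4, 0.59 (-0.27 to 1.46) for CLK1 probe A and 0.69 (-0.03 to 1.41) for CLK1 probe B. For SRSF2 and SRSF5 probe A the 8 h estimates were 0.05 (-0.38 to 0.49) and 0.01 (-0.34 to 0.36). The widest interval of any member reached 0.87 to either side of its estimate, so line differences smaller than that were not resolved for every member. The S547A and wt arrays also differed in RELA level, as given above.

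Sequence upstream of the start is shown for CLK4 and CLK1, the kinases that rose, for SRSF4 and SRSF6, which rose with them, and for SRSF3, which did not pass the test. The windows hold the 250 bases before the outermost RefSeq start of each gene in GRCh38.p14, read 5′ to 3′ on the gene's strand, and such windows were found for 9 of the 10 genes. They lie at chr5:178627051-178627300 (minus strand) for CLK4, chr2:200864659-200864908 (minus) for CLK1, chr1:29181901-29182150 (minus) for SRSF4, chr20:43457646-43457895 (plus) for SRSF6 and chr6:36594112-36594361 (plus) for SRSF3. Capitals mark matches, on either strand, to the motifs named in the next paragraph.
CLK4: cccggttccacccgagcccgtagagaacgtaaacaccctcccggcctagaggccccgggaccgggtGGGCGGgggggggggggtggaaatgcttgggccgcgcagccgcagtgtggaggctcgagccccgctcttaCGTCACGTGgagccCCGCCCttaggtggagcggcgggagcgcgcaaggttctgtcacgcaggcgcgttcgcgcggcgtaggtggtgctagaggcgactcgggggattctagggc
CLK1: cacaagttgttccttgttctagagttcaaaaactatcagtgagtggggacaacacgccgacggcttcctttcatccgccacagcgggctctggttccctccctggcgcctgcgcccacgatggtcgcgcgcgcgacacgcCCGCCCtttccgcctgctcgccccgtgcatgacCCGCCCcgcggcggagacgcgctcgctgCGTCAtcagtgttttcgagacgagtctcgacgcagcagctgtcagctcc
SRSF4: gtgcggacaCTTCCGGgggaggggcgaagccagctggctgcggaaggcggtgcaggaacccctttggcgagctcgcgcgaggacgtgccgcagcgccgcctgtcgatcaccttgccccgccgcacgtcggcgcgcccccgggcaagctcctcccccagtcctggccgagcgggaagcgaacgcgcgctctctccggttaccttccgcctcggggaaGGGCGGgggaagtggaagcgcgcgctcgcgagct
SRSF6: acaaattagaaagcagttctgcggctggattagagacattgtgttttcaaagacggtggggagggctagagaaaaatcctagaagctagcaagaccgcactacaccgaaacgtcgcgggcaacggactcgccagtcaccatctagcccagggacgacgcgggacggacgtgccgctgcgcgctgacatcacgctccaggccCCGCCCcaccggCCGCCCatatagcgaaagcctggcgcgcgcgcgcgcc
SRSF3: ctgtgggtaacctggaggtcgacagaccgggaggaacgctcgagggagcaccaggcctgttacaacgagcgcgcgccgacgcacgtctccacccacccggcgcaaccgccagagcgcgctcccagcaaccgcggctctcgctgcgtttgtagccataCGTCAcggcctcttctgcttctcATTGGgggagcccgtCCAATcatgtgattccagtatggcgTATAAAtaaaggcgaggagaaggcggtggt

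The motifs searched on both strands were the TATA box TATAAA, the CCAAT box CCAAT, the GC box GGGCGG, the cyclic AMP response element TGACGTCA and its shorter form TGACG, which lies within it, the ETS motif CCGGAAG, the E-box CACGTG and the NF-kB consensus. The GC box was found in 6 of the 9 windows (42.6% of all 35116 windows of that length) and TGACG in 5 (21.2%). The shares over all windows count every start listed, while each member gene has only its outermost start. CLK1 and CLK4 each had a pair of GC boxes and a TGACG match on the opposite strand, and in CLK4 that match overlapped an E-box. The E-box was found in 2 windows, those of CLK4 and CLK2 (6.34% of all), and the ETS motif in 2, those of SRSF4 and SRSF5 (8.52%). SRSF3 alone among the 9 had a TATA box, starting at -30 from the RefSeq start (10.7% of all windows), and CCAAT boxes (32%). The NF-kB consensus matched in 1 window, that of SRSF5 (9.96% of all), and TGACGTCA in none (1.65%). A match to letters is not a binding site, and these windows were not assayed.

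The rest of the splicing machinery was counted from lists of genes by role, in kept probes. Of all kept probes, 11.5% were called higher and 9.81% lower in wt cells at 8 h, and 11.5% and 10.8% in S547A cells. At 4 h these shares were 3.49% and 2.54% in wt and 3.18% and 2.17% in S547A cells. Of 6 probes of other SR proteins, 3 rose and none fell at 8 h in each line, and none was called at 4 h. The named ones were SRSF10, a splicing repressor when dephosphorylated, with 0.83 in wt and 0.88 in S547A cells, and SRSF11 with 0.69 in S547A cells. Of 13 probes of other SR protein kinases, 1 was called higher at 4 h in each line, and at 8 h 4 rose in each line, with 1 lower in S547A cells. CLK3, the remaining CLK with probes, rose by 1.67 and 0.99 with its 2 probes in wt cells and by 1.5 and 1.42 in S547A cells. The dimmer of the CLK3 probes gave 0.42 and 0.62 with the authors' table. The probe that fell was 1 of those of SRPK2, a mainly cytoplasmic SR protein kinase, by 1.01 in S547A cells. That call was lost under median scaling (adjusted p = 0.136), and another SRPK2 probe rose by 0.75 in wt and 0.81 in S547A cells.

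SR-related proteins, which carry arginine and serine repeats without being classical SR proteins, were called higher with 16 of 28 probes and lower with 1 in wt cells at 8 h, and with 17 and 3 in S547A cells. At 4 h the counts were 4 higher and 1 lower in wt and 3 and 1 in S547A cells. SREK1, a splicing regulator with such repeats, rose by 1.84 in wt and 1.91 in S547A cells with the probe that moved most, which gave 0.90 and 0.92 with the authors' table. SON, a speckle scaffold protein, rose at least 2.23-fold in wt cells with the probe that moved most, which no untreated wt array detected and which gave 0.52 on the log2 scale with the authors' table, while its other probes differed by between -0.11 and 0.65. LUC7L3, a U1-associated protein, fell by 1.03 in wt and by 0.54 in S547A cells with 1 probe and rose by 0.51 and 0.61 with another. RNPS1, a splicing activator, fell by 0.64 in S547A cells with 1 probe, while its other probe differed by 0.16. Under median scaling no probe of this list was called lower in S547A cells at 8 h, and the 4 h counts were 1 higher and 1 lower in the wt line and 2 and 1 in the S547A line.

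The hnRNP and PTB proteins, many of which oppose SR proteins at exons, were called both ways with 50 probes. At 8 h 7 were higher and 13 lower in wt and 5 and 9 in S547A cells, and at 4 h the counts were 2 and 2, and 3 and 0. The 8 h shares of all kept probes were 11.5% higher and 9.81% lower in wt, and 11.5% and 10.8% in S547A cells. Under median scaling the 8 h counts were 4 and 9 for wt and 4 and 5 for S547A cells. HNRNPA1, a classical antagonist of SRSF1, fell by 1.46 in wt and 1.29 in S547A cells, and by 0.86 and 0.64 with its other probe. HNRNPA3 fell by 0.96 in wt cells, and HNRNPU by 0.75 in wt and 0.91 in S547A cells with the same probe. PTBP2, the neural polypyrimidine tract binding protein, rose by 1.41 and 1.67, and by 1.02 and 1.58 with its other probe. HNRNPDL rose by 2.18 and 2.22 with the probe that moved most, while its other probe fell by 0.90 and 0.58, called lower in both lines.

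Factors that recognise splice sites were called with 5 of 23 probes higher and none lower in wt cells at 8 h, with 1 higher and 2 lower in S547A cells, and with none at 4 h. Beside these 8 h counts, 11.5% of all kept probes were higher in each line, and 9.81% in wt and 10.8% in S547A cells were lower. U2AF1 rose by 0.65 in wt cells, SF3B4 by 0.61 in wt and 0.43 in S547A cells, and SNRPA and SNRPC fell by 0.46 and 0.39 in S547A cells. Under median scaling the 8 h counts were 3 and 0 in wt and 0 and 0 in S547A cells. Of 20 probes of transcription CDKs and their cyclin L partners, 5 rose in each line at 4 h. At 8 h the count was 7 for wt and 9 for S547A cells, with none lower at either time. The named one was CCNL1, a cyclin found in speckles that takes part in splicing, whose probes at 8 h rose by 2.16 and 2.02 for wt cells, and by 2.04 and 2.24 for S547A cells. The dimmer of these gave 1.31 and 1.41 with the authors' table. No set test was made, and the counts are read only beside the shares of all probes given above.

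**Figure D4:**
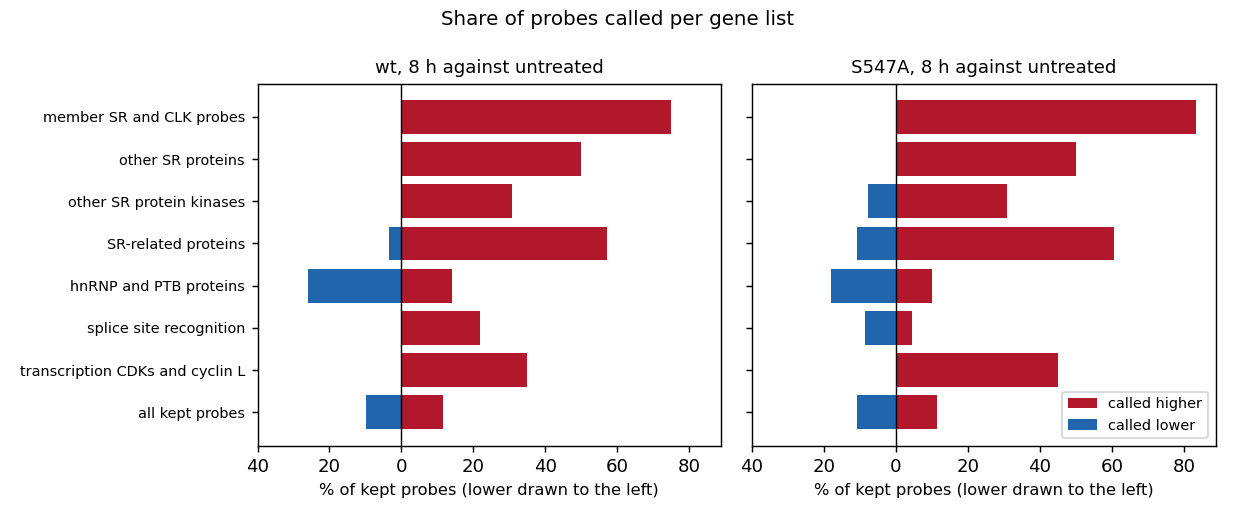
Share of kept probes called at 8 h against untreated (x axis, percent, higher drawn to the right in red and lower to the left in blue) for the members, 6 lists of other splicing and transcription genes, and all kept probes, in wt (left) and S547A cells (right). The members and the SR-related proteins reach farthest to the right, and the hnRNP and PTB proteins farthest to the left.

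Some genes followed the same course as a member across the 18 arrays, among 15993 probes of other genes with 1 symbol. CLK4, whose mean change over the 4 responses was the highest of the members at 2.07, was most like CDKN2AIP (Pearson's r = 0.981), GABARAPL1 (0.979) and SREK1 (0.975). The SREK1 probe meant here is another than the one whose changes are given above. At 8 h the probes of CDKN2AIP, GABARAPL1 and SREK1 differed from untreated cells by 1.90, 1.57 and 1.11 in the wt line. In the S547A line they differed by 2.38, 1.66 and 1.36. SRSF3 probe B, whose mean change was the lowest at -0.19, was most like MFSD6 (0.76), NOC2LP2 (0.694) and SNORD113-4 (0.677). The arrays share the 3 times of treatment, which alone tie together any probes that change with time, so these values describe likeness only.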

How the data were processed

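The measurements are 18 Illumina bead arrays of total RNA. The authors deposited, per the file headers, a linear intensity and a detection p-value for each of 47231 probes on each array, and a second table of intensities normalized between arrays by the authors. Per the submitters' processing notes, GenomeStudio was used. Steps of background subtraction and a genome build are not given in the sources used here.

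The number of a sample in the labels tied it to its array column. The neqc function of limma 3.58.1 (R 4.3.3, offset 16) subtracted background estimated from detection p-values, quantile-normalized the arrays and gave log2 levels. A probe was kept where its detection p was under 0.05 on 3 or more arrays. Symbols came from the platform's gene table, in which 30112 probes have 1 symbol, 8 several and 17111 none. All 6 group means were fitted together with limma (12 residual degrees of freedom, moderated variances, two-sided), Benjamini-Hochberg adjustment ran over the 22161 kept probes of each comparison, and 11 comparisons were made. The fitting was tested on simulated data. Array number limits the precision. The p-values rest on the spread between experiments within groups, pooled over the 6 groups and moderated across probes. A "bound" fold sets the brighter group against the lowest detected signal where the dimmer group was detected on no array.

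The members and lists were chosen with earlier results of these data known. All member probes are named. From each other list, counts are given with up to 2 called probes per direction and line that changed most at 8 h. The 3 probes most correlated with the members of highest and lowest mean change are named. Values of other probes of a named gene were added after they were seen. The lists are other SR proteins, other SR protein kinases, SR-related proteins, hnRNP and PTB proteins, splice site recognition, and transcription CDKs with cyclin L, besides markers for the cell line and other cell types.

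Replicate numbers are shared between groups in the labels, which do not say what a number marks. Same-numbered arrays' deviations from their group means correlated between -0.0509 and 0.185 in 9 comparisons. All 3 pairs were over 0.1 (0.103, 0.121 and 0.13) only for 8 h against 4 h in S547A cells, where the block is given beside the result. Alternatives were another offset, no background correction, median scaling, the authors' normalized table, other filters, the brightest probe per gene, the replicate block, fitting only the groups compared, and leaving out each array. Promoter windows come from RefSeq in GRCh38.p14. No slide or scan batch is given in the sources used here.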

Additional observations from a re-analysis of the deposited data

How the results depend on the processing

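Of 2069 values of single member probes under the alternatives, 1967 kept their side of the threshold, 41 lost a call, 61 gained a call and 0 reversed. Direction was compared only for values called in the fit reported above or under the alternative. Uncalled values among the 1967 could change sign, as SRSF1 did in wt cells at 4 h (0.09 above, and between -0.07 and 0.15 under the alternatives). The cause was not tested for any change, except that leaving out an array or fitting only the groups compared leaves fewer arrays. In wt cells at 4 h the 5 members called higher became 2 under median scaling and 2 with only the groups compared, and the 1335 probes called overall became 861 and 762. In S547A cells at 4 h the 3 members called became 7 with an offset of 50, 7 without background correction and 7 with the authors' table. The 1185 probes called overall became 1469, 1469 and 1465 in that order. The 3 members became 5 without a filter, 6 with probes detected on all 18 arrays and 5 with the brightest probe per gene. Probes called overall were then 1083, 1393 and 1146. With only the groups compared, 1 member and 320 probes were called. For 8 h against 4 h in wt cells, 1 member became 2 without background correction and 2 with the authors' table. The 1683 probes called overall became 2430 and 2440 there, and 878 with only the groups compared. In S547A cells 2 members became 6 with the offset of 50, 6 without background correction and 6 with the authors' table. The 2220 probes called overall became 2753, 2872 and 2899 in that order. The 2 members became 4 with probes detected on all 18 arrays and 4 with the brightest probe per gene, where 2737 and 1857 probes were called overall. Probes called overall were 1129 under median scaling and 408 with only the groups compared.

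Between the lines few probes of any gene were called, and no member under any alternative. Untreated, 3 probes became 0 without a filter, 5 with the brightest probe per gene and 0 with only the groups compared. At 4 h 9 became 15 with the offset of 50, 16 without background correction, 16 with the authors' table, 1 with probes detected on all arrays and 0 with only the groups compared. At 8 h 11 became 24, 31, 32, 0 and 3 in the same order. The 3 interaction calls at 4 h became 5 with the offset of 50 and 0 under median scaling, on probes detected on all arrays and with only the groups compared, and the 4 at 8 h became 0, 0 and 1 under the last 3 of these.

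With the replicate block, members called in S547A cells at 4 h went from 3 to 5, adding SRSF5 probe A (adjusted p = 0.0497) and SRSF6 (0.012), SRSF5 probe A in wt cells at 4 h was gained (0.0475), members for 8 h against 4 h in S547A cells went from 2 to 4, and probes called between untreated lines from 3 to 1. No other member call changed with the block. Probes called overall went with the block from 1185 to 1301 in S547A and from 1335 to 1472 in wt cells at 4 h. For 8 h against 4 h in S547A cells they went from 2220 to 2554. All 3 same-number correlations were over 0.1 for 8 h against 4 h in S547A cells only. Every array correlated best with its own number in the comparisons within S547A cells, and not in those within wt cells or between the lines.

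Leaving out 1 array gave 1 to 4 member calls in wt and 2 to 3 in S547A cells at 4 h, 7 to 9 and 10 to 10 at 8 h, and 0 to 1 and 2 to 3 for 8 h against 4 h. Over all probes the counts were 798 to 931, 705 to 953, 3638 to 3836 (of 4731), 3877 to 4155 (of 4954), 867 to 1053 and 1314 to 1909 in that order. Between the lines they were 0 to 2 untreated, 4 to 11 at 4 h and 6 to 7 at 8 h, and for the interactions 0 to 4 and 0 to 3.

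Under median scaling the median change of all probes was -0.11 in wt cells at 4 h (-0.01 otherwise) and 0.13 for 8 h against 4 h in wt cells (0 otherwise). Between the lines it was -0.20 untreated (-0.01 otherwise), -0.14 at 8 h (-0.02) and 0.21 for the interaction at 4 h (0). Median scaling moved the share of higher calls among all calls from 57.9% to 31.7% in wt and from 59.4% to 83.7% in S547A cells at 4 h, from 54% to 66.9% and from 51.5% to 77.3% at 8 h, and from 59% to 92.2% and from 53.3% to 70.5% for 8 h against 4 h. CLK1 probe B and CLK4 are limited by signal near background, since they were detected on 7 and 13 of 18 arrays.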

Other observations

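The probes of some splicing genes moved in opposite directions, which was noticed after the values were seen. Of 3140 genes with 2 or more kept probes, 491 had at least 2 probes called at 8 h in wt cells, and 15 of these (3.05%) had probes called both higher and lower. In S547A cells 12 of 510 (2.35%) did. HNRNPDL, HNRNPA2B1 and LUC7L3 were among them in both lines, and SRPK2 in S547A cells. None of SRSF3, SRSF5 and CLK1, the members with 2 probes, was. At 4 h the counts were 0 of 95 in wt and 1 of 77 in S547A cells.

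HNRNPDL, an hnRNP whose own transcript is known to be alternatively spliced, had a rising and a falling probe. Its rising probe was at 9.38 ± 0.17 (SD, n = 3) in untreated wt cells, 10.82 ± 0.22 at 4 h and 11.56 ± 0.02 at 8 h. Its falling probe was at 9.14 ± 0.12, 8.87 ± 0.30 and 8.23 ± 0.14 on the same arrays. In S547A cells the rising probe went from 9.36 ± 0.17 to 10.74 ± 0.04 and 11.58 ± 0.21, and the falling one from 9.04 ± 0.18 to 8.71 ± 0.10 and 8.46 ± 0.12. Where these probes lie in the transcript is not given in the files.

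A pair of probes carries the symbol CLK2P1, a pseudogene of CLK2, and was kept out of the members. The brighter was at 5.37 ± 0.35, 5.64 ± 0.39 and 5.90 ± 0.17 (SD, n = 3) in wt cells untreated, at 4 h and at 8 h, and at 5.18 ± 0.18, 5.85 ± 0.31 and 5.58 ± 0.24 in S547A cells. Its 8 h differences of 0.52 in wt (adjusted p = 0.103) and 0.40 in S547A cells (adjusted p = 0.22) were not called by limma. Whether these probes also read CLK2 transcripts was not tested.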
